A study of Mus musculus with 4 samples.

Results

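Molecular chaperones bind unfolded or partly folded proteins and help them to reach or keep their native form. The Hsp70 proteins bind short stretches of a client in a cycle driven by ATP. J proteins (the Dnaj genes) deliver clients to Hsp70 and start that cycle, and exchange factors such as the Hsp110 proteins release the client. Hsp90 proteins act later, on partly folded clients such as kinases and steroid receptors, and the ring-shaped chaperonin TRiC (the Cct genes and Tcp1) folds actin and tubulin, which growing axons need in quantity. Small heat shock proteins (the Hspb genes) hold unfolded proteins without ATP.

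The chaperone genes described here are the rows of a gene count table whose symbol starts with Hspa, Hspb, Hspd, Hspe, Hsph, Hsp90, Dnaja, Dnajb or Dnajc, or is Tcp1 or a Cct symbol from Cct2 to Cct8, with 1 exception that is not analysed here. They are 82 of the 23240 rows. The rule uses names only, so it also took in Hspb11, a gene of ciliary transport, and Hspbp1 and Hspbap1, whose products bind Hsp70 and a small heat shock protein. The cells came from mouse cortex at embryonic day 15.5. All embryos carried both a Nestin-GFP and a DCX-mRFP reporter, from a cross of heterozygous Nestin-GFP mice with homozygous DCX-mRFP mice. Fluorescence sorting took cells with green alone as neural progenitor cells (NPCs) and cells with green and red as neurons, and total RNA of each group was sequenced in duplicate (2 libraries per group). The sort by Nestin-GFP alone would keep any other cell with green and no red fluorescence. The labels do not say that the duplicates came from separate litters, so p-values reflect no more than the spread of the libraries, and that spread may be technical.

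The 4 libraries held 52611828 to 55615142 counts. Levels are in CPM (a count relative to the whole library) after scaling with TMM factors. Each log2 change is the neuron level over the NPC level, ± its standard error. A gene passed at an adjusted p of 0.05 in the quasi-likelihood test of edgeR, with p-values adjusted by Benjamini-Hochberg over the 15292 genes tested. The genes behind the reporters, which defined the sort, were at 103 and 97.8 CPM in NPCs and 33.1 and 36.4 CPM in neurons for Nes, and at 468 and 493 CPM against 1358 and 1441 CPM for Dcx. All 10 mitosis markers tested were higher in NPCs (median log2 change -2.21). So were all 8 endothelial markers (median -4.77, summed level 223 to 226 CPM in NPCs and 7.74 to 7.87 CPM in neurons), all 6 pericyte markers (median -4.66) and all 6 markers of oligodendrocyte precursors (median -5.75), and none of these markers was at 0 in a library. In these sorted populations, fewer cells of a type and less RNA per cell cannot be told apart.

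Of the 82 chaperone genes, 74 had enough counts to be tested. The other 8 were Dnajc5g, Dnajc5b and Dnajb8, at 0 in every library, and Dnajb13, Hspb2, Hspb3, Hspb7 and Hspb9, with at most 13 counts in a library. Together the 82 genes took 1.86% and 1.83% of the counts in NPCs and 1.81% and 1.77% in neurons. On the TMM-scaled levels used for single genes, the summed level of the tested genes was 17262 and 17086 CPM in NPCs and 19553 and 19011 CPM in neurons, so the direction of the total turned with the scaling. Of the 74, 49 passed (66.2%), where 72.6% of all genes tested did. Neurons had the higher level for 23 of them (31.1%, against 35.8% of all genes) and NPCs for 26 (35.1%, against 36.9%). The libraries of both groups did not overlap for 61 of the 74 (82.4%, against 86.0% of all genes). The differences were mostly small. Only 10 of the 74 both passed and differed by at least 2-fold (13.5%), against 29.9% of all genes tested, and the median size of the log2 change was 0.26, against 0.50 for all genes. Part of that gap goes with expression level. Of the 49 chaperone genes at a mean of at least 20 CPM, 4 passed and differed by 2-fold, against 15.9% of all genes at that level, and the median sizes were 0.22 and 0.33.

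The counts by direction depended on the scaling and on single libraries. When libraries were scaled by their size alone, the median log2 change of all genes tested moved from -0.02 to -0.23. Then 12 chaperone genes were higher in neurons and 39 in NPCs, against 3840 and 7610 of all genes (5467 and 5641 with TMM factors). With upper-quartile factors (median -0.12), 4609 and 6582 of all genes passed in those directions, and 13 and 30 chaperone genes did. Without NPC replicate 2, 14 were higher in neurons and 23 in NPCs. A shift of that size turns the sign of changes under about 0.2 on the log2 scale, so the values of small changes are given under more than 1 scaling where their sign or call moved.

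**Figure D1:**
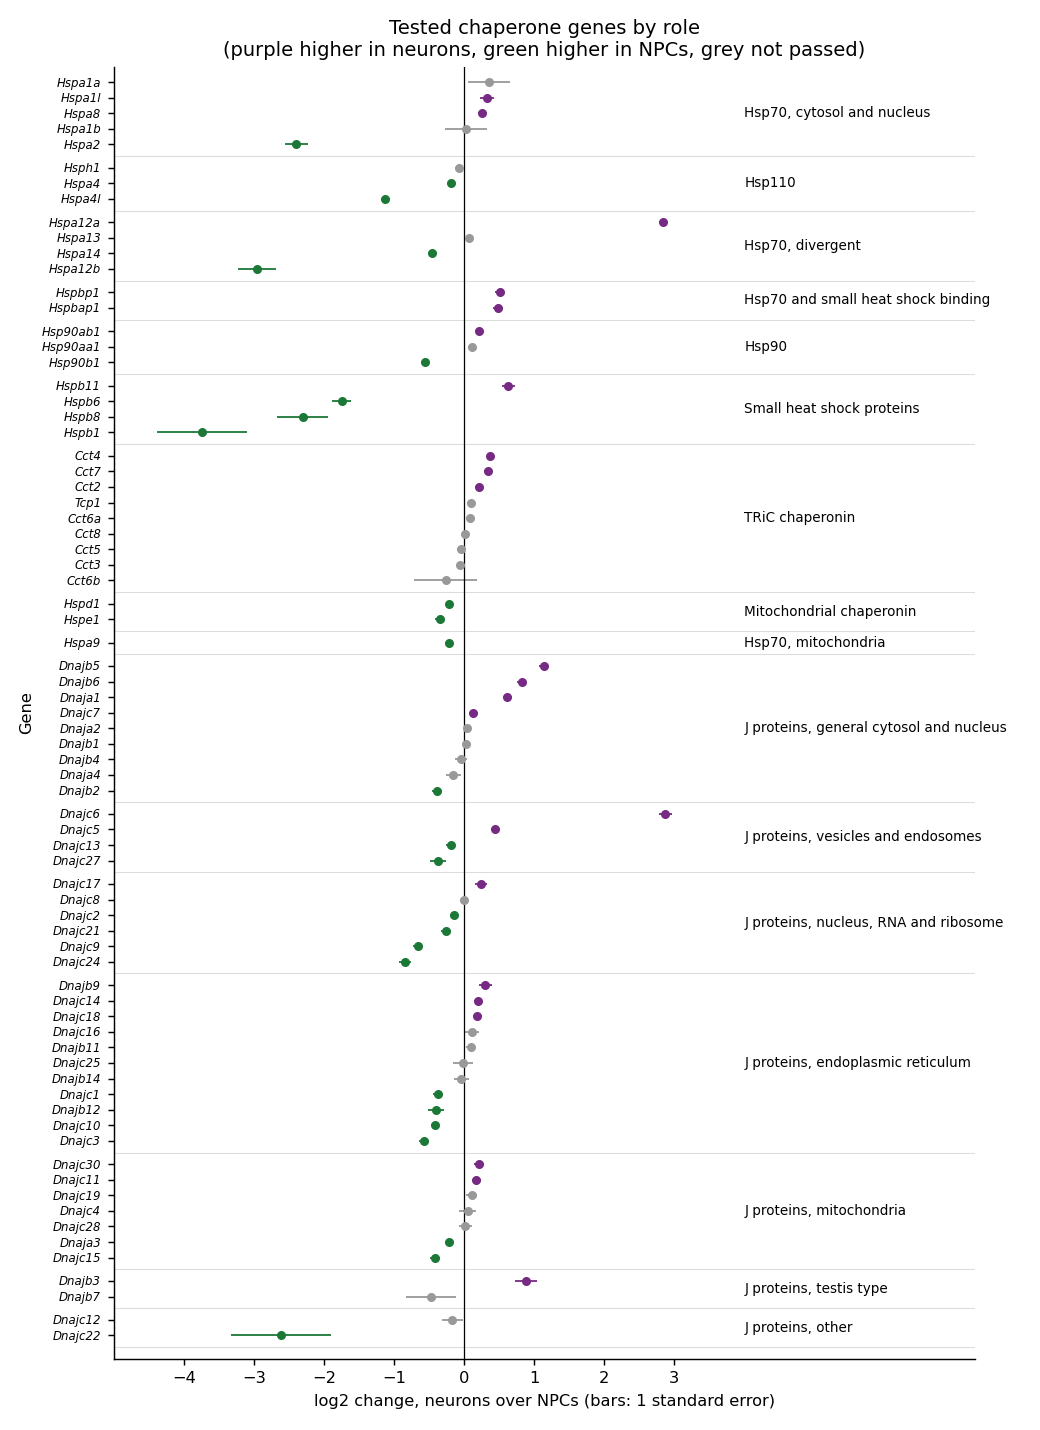
The log2 change (neurons over NPCs, horizontal axis, bars of 1 standard error) is plotted for each of the 74 tested chaperone genes, grouped by role. Most points lie near 0, and the divergent Hsp70 genes and the small heat shock genes spread widest, from -3.74 for Hspb1 to 2.84 for Hspa12a, with Dnajc6 at 2.87 among the J proteins.

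**Figure D2:**
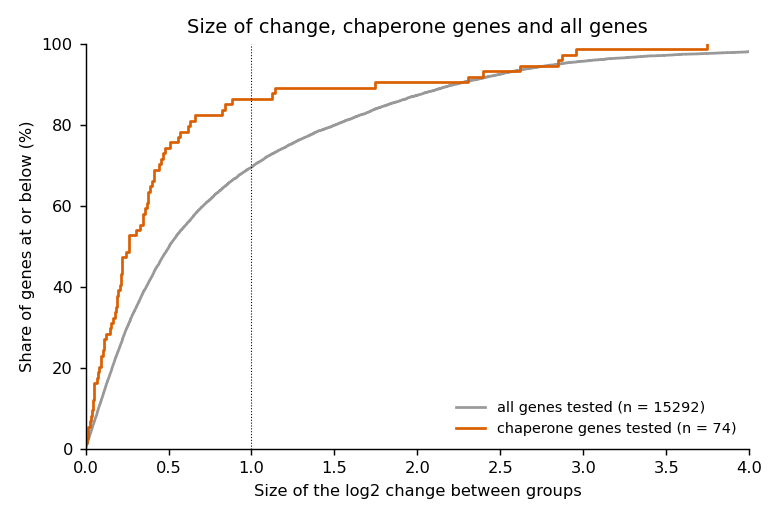
The cumulative share of genes (vertical axis, percent) is plotted against the size of the log2 change between neurons and NPCs (horizontal axis, shown up to 4) for the 74 chaperone genes and for all 15292 genes tested. The chaperone curve lies above the curve of all genes up to a change of about 2, and the dotted line marks a 2-fold change.

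Of all the chaperone genes, Dnajc6 rose the most in neurons. It encodes auxilin, the J protein that brings Hsp70 to clathrin-coated vesicles and so strips their coat. Its level was 5.96 and 6.89 CPM in NPCs and 43.8 and 50.4 CPM in neurons, which is a log2 change of 2.87 ± 0.10 (7.33-fold, adjusted p = 8.7e-14). Both neuron libraries were far above both NPC libraries. Gak, the broadly expressed relative of auxilin, which the symbol rule leaves out, averaged 45.5 CPM in NPCs and 52.3 CPM in neurons (0.20, adjusted p = 0.011), lost without NPC replicate 1 (adjusted p = 0.19) and at -0.01 with library size only.

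The other J proteins of vesicles and endosomes moved less. Dnajc5 encodes cysteine string protein, which guards proteins of the synaptic vesicle. It was at 80.1 and 77.9 CPM in NPCs and 101 and 114 CPM in neurons, which is a log2 change of 0.44 ± 0.06 (adjusted p = 7.5e-06). Dnajc13, which acts on endosomes, and Dnajc27, a small GTPase with a J domain, were higher in NPCs. Dnajc27 was at 13.6 and 12.6 CPM in NPCs and 8.81 and 11.5 CPM in neurons (-0.37 ± 0.12, adjusted p = 0.0099), and its call was lost without NPC replicate 1 (-0.31, adjusted p = 0.061) or neuron replicate 1 (-0.18, adjusted p = 0.12). Dnajc13 had a log2 change of -0.19 (adjusted p = 0.0087), lost without NPC replicate 2 (-0.14, adjusted p = 0.17). The group thus split, with 2 of 4 genes higher in each population.

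Hspa12a, a divergent relative of Hsp70, rose nearly as much as Dnajc6. It was at 16.4 and 17.4 CPM in NPCs and 117 and 125 CPM in neurons, which is a log2 change of 2.84 ± 0.07 (7.18-fold, adjusted p = 2.4e-15). Its paralog Hspa12b, a gene known from endothelial cells, went the other way. Hspa12b was at 3.005 and 3.033 CPM in NPCs and 0.287 and 0.484 CPM in neurons, which is a log2 change of -2.95 ± 0.27 (adjusted p = 4e-08). The 354 counts in NPCs against 39 in neurons gave a ratio of 7.78 (95% exact interval 5.58 to 11.1, for counting error only). Within a library, Hspa12a had 5.43 and 5.75 times the counts of Hspa12b in NPCs and 417 and 263 times in neurons. Endothelial markers fell in the same direction as Hspa12b (8 of 8, median -4.77), and their part in its change was not tested. Of the other divergent genes, Hspa14, which assists new chains at the ribosome, was higher in NPCs (-0.46, adjusted p = 7.8e-06), and Hspa13 did not pass (0.08). Hspa13 passed as higher in neurons without neuron replicate 1 (0.12, adjusted p = 0.044) and as higher in NPCs with library size only (-0.13, adjusted p = 0.047).

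The main Hsp70 of the cytosol changed little. Hspa8, which encodes the constitutive Hsc70, was at 4577 and 4481 CPM in NPCs and 5617 and 5246 CPM in neurons, and it held between 26.2% and 28.7% of the summed level of the tested chaperone genes. Its log2 change of 0.26 ± 0.06 passed (adjusted p = 0.00090), was lost without NPC replicate 2 (0.25, adjusted p = 0.072) and was 0.05 with library size only. Of the windows of 1 read length (an inferred 101 bases) in its transcript, 62.6% also occur in transcripts of other genes, mostly processed copies. How such reads were counted is not given in the sources used here. The heat-inducible genes Hspa1a and Hspa1b were at or near 1 CPM in every library. Hspa1a was at 0.730 and 0.654 CPM in NPCs and 0.819 and 0.949 CPM in neurons (adjusted p = 0.31). Hspa1b was at 0.764 and 1.14 against 0.840 and 1.10 CPM (adjusted p = 0.93). The Hspa1b libraries of both groups overlapped, and its log2 change of 0.03 turned to -0.18 with library size only. Hspa1b also holds 46.9% of the windows of Hspa1a, so their separate values are uncertain. Of 13 immediate early genes tested, which respond to handling and activity, 8 were higher in NPCs and 3 in neurons, and what their change has to do with the level of Hspa1a and Hspa1b was not tested.

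The Hsp70 genes best known from testis were low. Hspa2 was at 7.10 and 8.08 CPM in NPCs and 1.41 and 1.47 CPM in neurons, which is a log2 change of -2.39 ± 0.16 (adjusted p = 6.6e-10). Hspa1l had a log2 change of 0.33 (adjusted p = 0.0096), which was lost without NPC replicate 2 (0.31, adjusted p = 0.067) and was 0.12 with library size only.

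Among the Hsp110 genes, whose products release clients from Hsp70, Hspa4l stood apart. It was at 104 and 109 CPM in NPCs and 49.0 and 48.9 CPM in neurons, which is a log2 change of -1.12 ± 0.06 (2.18-fold higher in NPCs, adjusted p = 2.1e-11). Its paralog Hspa4 was at 209 and 208 CPM against 181 and 186 CPM (-0.18 ± 0.05, adjusted p = 0.0048), and that call was lost without NPC replicate 1 (adjusted p = 0.074) or NPC replicate 2 (adjusted p = 0.061). Hsph1, the heat-inducible member, was at 248 and 254 CPM in NPCs and 245 and 233 CPM in neurons and missed the threshold (-0.07 ± 0.05, adjusted p = 0.25), though it passed without neuron replicate 1 (-0.10, adjusted p = 0.046) and with library size only (-0.28). The ratio of Hspa4l to Hspa4 counts within a library, which does not depend on scaling, was 0.497 and 0.526 in NPCs and 0.270 and 0.263 in neurons. With 2 libraries against 2, an exact permutation test cannot give a two-sided p under 0.333. Hspbp1, another exchange factor of Hsp70, rose from 56.3 and 53.1 CPM to 80.1 and 75.5 CPM (0.51 ± 0.06, adjusted p = 1.1e-06), and Hspbap1 had a log2 change of 0.48 ± 0.07 (adjusted p = 1.6e-05).

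The Hsp90 genes differed by compartment. Hsp90ab1, the constitutive cytosolic form, was at 2077 and 2046 CPM in NPCs and 2345 and 2455 CPM in neurons (0.22 ± 0.06, adjusted p = 0.0022). That call was lost without NPC replicate 1 (adjusted p = 0.062) or NPC replicate 2 (adjusted p = 0.096), and the change was 0.01 with library size only. Hsp90aa1, the inducible cytosolic form, was at 740 and 721 CPM against 778 and 801 CPM and did not pass (0.11 ± 0.05, adjusted p = 0.071). It lay near the threshold, and passed as higher in neurons with DESeq2 (0.12, adjusted p = 0.032), limma-voom (0.11, adjusted p = 0.046) and no low-count filter (0.12, adjusted p = 0.042), and without neuron replicate 1 (0.14) or neuron replicate 2 (0.10). It was -0.09 with library size only. Its counts were 0.356 and 0.352 times those of Hsp90ab1 in NPCs and 0.332 and 0.326 times in neurons. Of the windows of the Hsp90aa1 transcript, 47.3% occur in other genes' transcripts. Hsp90b1, the form of the endoplasmic reticulum (ER), fell from 461 and 474 CPM to 324 and 313 CPM (-0.55 ± 0.05, adjusted p = 7.4e-08). Per kilobase of transcript, mean NPC levels were 1892 CPM for Hspa8, 818 CPM for Hsp90ab1, 223 CPM for Hsp90aa1 and 166 CPM for Hsp90b1.

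The genes of TRiC, whose 8 subunits form a double ring, stayed within 1.30-fold between the populations. Of the 8, 3 were higher in neurons, 0 in NPCs and 5 missed the threshold in edgeR, with log2 changes from -0.05 to 0.38. The balance turned with the scaling, to 2 higher in neurons and 4 in NPCs with library size only and 2 and 2 with upper-quartile factors. Cct4 was at 598 and 600 CPM in NPCs and 797 and 757 CPM in neurons (0.38 ± 0.05, adjusted p = 1e-05). Cct7 was at 628 and 604 CPM against 804 and 761 CPM (0.35 ± 0.06, adjusted p = 3e-05). Both passed with library size only too, at 0.17 and 0.14.

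The other subunits moved less or not measurably. Cct2 was at 354 and 346 CPM in NPCs and 393 and 419 CPM in neurons (0.22 ± 0.05, adjusted p = 0.0021), a call lost without NPC replicate 2 (0.20, adjusted p = 0.065) and with library size only (0.01). Tcp1 was at 526 and 523 against 558 and 562 CPM (0.10), Cct6a at 664 and 670 against 695 and 717 CPM (0.08), and Cct8 at 506 and 493 against 495 and 515 CPM (0.02). The signs of these 3 turned with library size only, to -0.11, -0.13 and -0.19, where Cct6a and Cct8 passed as higher in NPCs, and Cct8 turned too without NPC replicate 2 or neuron replicate 2. Tcp1 passed without neuron replicate 1 (0.11) or neuron replicate 2 (0.10), and Cct6a without neuron replicate 1 (0.12). Cct5, at 745 and 742 against 735 and 702 CPM, and Cct3, at 449 and 442 against 435 and 424 CPM, had log2 changes of -0.05 that did not pass, and both passed as higher in NPCs with library size only (-0.26). The subunits thus did not all change by the same factor. Cct4 had 0.802 and 0.809 times the counts of Cct5 in NPCs and 1.08 and 1.08 times in neurons, a pair chosen after its values were seen. Cct6b, the testis form of Cct6a, was below 0.5 CPM in every library.

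**Figure D3:**
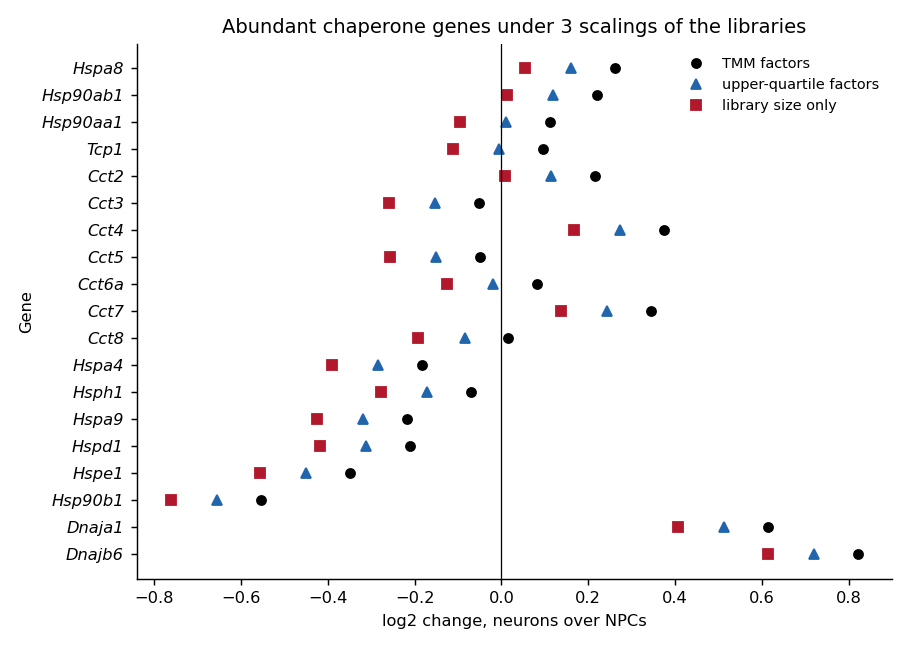
The log2 change (neurons over NPCs, horizontal axis) of 19 abundant chaperone genes is plotted under TMM factors (circles), upper-quartile factors (triangles) and library size only (squares). Hspa8, Hsp90ab1 and Cct2 approach 0 and Hsp90aa1, Tcp1, Cct6a and Cct8 cross it as the scaling changes, while Hsp90b1 and Hspe1 stay below 0 and Dnaja1, Dnajb6, Cct4 and Cct7 stay above it.

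Hspd1, Hspe1 and Hspa9, the mitochondrial chaperonin and Hsp70 genes of the set, were lower in neurons. Hspd1 and Hspe1 encode the large ring and the lid of the mitochondrial chaperonin. Hspd1 was at 517 and 513 CPM in NPCs and 447 and 443 CPM in neurons (-0.21 ± 0.05, adjusted p = 0.0017). Hspe1 was at 105 and 98.8 CPM against 76.8 and 83.3 CPM (-0.35 ± 0.06, adjusted p = 6.5e-05). Of the transcript windows of Hspd1 and Hspe1, 26.7% and 20.3% also occur in other genes' transcripts, and the genes overlap each other in RefSeq. Hspa9, the Hsp70 of mitochondria, was at 393 and 394 CPM against 333 and 344 CPM (-0.22 ± 0.05, adjusted p = 0.0014). The groups did not overlap for any of the 3, as for 86.0% of all genes tested. All 3 calls held with library size only, but that scaling lowers the log2 changes (Hspa9 to -0.43), so it could not undo them. With 1 library left out at a time, Hspa9 stayed at -0.19 to -0.23. The median of Hspd1 and Hspe1 then stayed at -0.24 to -0.30. When the test asked for more than a 1.2-fold change, Hspd1 and Hspa9 did not pass. Trap1, the Hsp90 of mitochondria and not a member by its symbol, fell from 64.7 and 68.9 CPM to 40.6 and 44.4 CPM (-0.65 ± 0.07). The exchange factors of Hspa9, also outside the rule and named after their values were seen, did not fall with it: Grpel2 was higher in neurons (0.42, adjusted p = 6.3e-06, and 0.21 with library size only), and Grpel1 did not pass (0.00, or -0.21 with library size only).

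The 7 mitochondrial J protein genes were split, with 2 higher in neurons, 2 higher in NPCs and 3 that did not pass (median 0.05). Dnajc15, of the import motor, was at 24.0 and 23.9 CPM in NPCs and 17.98 CPM on average in neurons (-0.41 ± 0.08, adjusted p = 0.00014). Dnaja3, a partner of Hspa9, had a log2 change of -0.21 (adjusted p = 0.0087) that was lost without NPC replicate 1 (-0.18, adjusted p = 0.099). Dnajc30 and Dnajc11 were higher in neurons at 0.22 and 0.18. Dnajc30 was lost without NPC replicate 2 (adjusted p = 0.17) and was 0.01 with library size only. Dnajc11 was lost without NPC replicate 1, NPC replicate 2 or neuron replicate 1 (adjusted p = 0.16, 0.064 and 0.067), and was -0.03 with library size only.

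Promoter letters were read for the genes that respond to heat shock, because Hspd1 and Hspe1 lie head to head and fell together. Heat shock factor binds inverted repeats of GAA, searched here as GAANNTTC or TTCNNGAA (each reads the same on both strands, and they can overlap) and, as 3 units, GAANNTTCNNGAA on either strand. The windows, from RefSeq on build GRCm38.p6, run from 250 bases before to 50 bases after a transcript start, and 67 of the 82 chaperone genes matched by symbol. Hspa8, Hsp90aa1, Hsp90ab1, Hspa9 and Cct4 were among those without a match, so their promoters were not read. The stretches below hold the longest matches, those of Hspd1, Hspe1, Dnajb6 and Hsph1, with the matched bases in capitals. Those of Hspa1a and Hspa1b are also shown and hold 8 matched bases, as do stretches of other chaperone genes that are not shown. Hspd1 on the minus strand (chr1:55088034-55088101) and Hspe1 on the plus strand (the same bases) read the same run of 18 matched bases from opposite sides. Dnajb6 (chr5:29735827-29735889, plus strand) and Hsph1 (chr5:149636266-149636325, minus strand) hold a run of 13. Hspa1a (chr17:34972228-34972285, minus strand) and Hspa1b (chr17:34959310-34959367, minus strand) are identical over the stretch.
Hspd1: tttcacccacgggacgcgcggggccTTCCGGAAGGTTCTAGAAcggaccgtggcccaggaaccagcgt
Hspe1: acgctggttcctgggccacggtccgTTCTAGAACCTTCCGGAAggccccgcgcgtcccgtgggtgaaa
Dnajb6: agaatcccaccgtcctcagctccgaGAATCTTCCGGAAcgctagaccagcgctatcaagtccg
Hsph1: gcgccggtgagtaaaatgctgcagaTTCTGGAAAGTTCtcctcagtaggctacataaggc
Hspa1a: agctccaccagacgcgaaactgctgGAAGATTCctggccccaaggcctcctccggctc
Hspa1b: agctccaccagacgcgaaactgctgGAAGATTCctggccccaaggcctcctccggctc

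Either 2-unit form was found in 19 of the 67 chaperone genes (28.4%) and in 17.0% of all 27025 genes in the promoter table. The 3-unit form was found in 4 of the 67 (5.97%), namely Hspd1, Hspe1, Dnajb6 and Hsph1, and in 0.662% of all genes. The 4 did not move alike. Dnajb6 was higher in neurons, Hspd1 and Hspe1 were higher in NPCs, and Hsph1 did not pass. Of the 17 tested genes with a 2-unit form, 3 were higher in neurons and 7 in NPCs (median -0.07), and of the 44 tested genes without one, 13 were higher in neurons and 16 in NPCs (median 0.01). A match describes the letters and shows no binding.

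Of the 4 tested genes named as small heat shock proteins, 3 were low in both populations and lower still in neurons. Among those with too few counts to test, Hspb3 had 4 and 2 counts in NPCs and 5.98 and 13 in neurons. Hspb2 went the other way, with 6 and 4 counts in NPCs and 1 and 2.01 in neurons. Hspb6 was at 8.84 and 8.53 CPM in NPCs and 2.66 and 2.52 CPM in neurons, which is a log2 change of -1.75 ± 0.14 (adjusted p = 4.6e-09). Hspb8, whose product works with the exchange factor encoded by Bag3, was at 1.29 and 1.49 CPM against 0.389 and 0.174 CPM (-2.30 ± 0.37, adjusted p = 2.9e-05). It had 74 and 89 counts in the NPC libraries and 19 and 9 in the neuron libraries, a ratio of 4.99 (95% exact interval 3.325 to 7.738). Hspb1 had 24 and 42 counts in the NPC libraries and 2 and 2 in the neuron libraries, a ratio of 14.1 (95% exact interval 5.27 to 53.4), and it passed (adjusted p = 5.9e-05). Of the windows of the Hspb1 transcript, 42.5% occur in a pseudogene. Bag3 itself was at 4.01 and 4.29 CPM in NPCs and 0.287 and 0.291 CPM in neurons (-3.84 ± 0.25). Hspb11, named as a small heat shock protein but known as a part of the transport system of cilia, rose instead, from 11.8 and 10.7 CPM to 17.7 and 17.0 CPM (0.63 ± 0.09, adjusted p = 1.2e-05). Markers of endothelial cells (8 of 8, median -4.77) and of pericytes (6 of 6, median -4.66) moved in the same direction as Hspb1, Hspb6, Hspb8 and Bag3. The pericyte markers had a summed level of 163 to 169 CPM in NPCs and 6.23 to 6.51 CPM in neurons. Markers of oligodendrocyte precursors (6 of 6, median -5.75), erythroid cells (6 of 6, median -2.59) and microglia (7 of 7, median -1.21) moved that way too. So did those of radial glia (10 of 11, median -2.31) and mitosis (10 of 10, median -2.21). The part of any of these cells in the changes was not tested.

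Of the 9 J proteins that serve Hsp70 generally in the cytosol and nucleus, 4 were higher in neurons, 1 in NPCs and 4 did not pass (median 0.05). With library size only, 3 were higher in neurons and 5 in NPCs (median -0.16). The 3 that changed most all rose. Dnaja1, a main partner of Hsc70, went from 811 and 806 CPM to 1324 and 1152 CPM (0.62 ± 0.06, adjusted p = 2.1e-07). Dnajb6, which holds back protein aggregates, went from 281 and 278 CPM to 526 and 464 CPM (0.82 ± 0.06, adjusted p = 3e-09). Dnajb5 went from 19.2 and 20.1 CPM to 41.3 and 45.6 CPM (1.14 ± 0.07, adjusted p = 4.3e-10).

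Those 3 calls held without any 1 library and with library size only (0.41, 0.61 and 0.94). Of the transcript windows of Dnajb6 and Dnaja1, 30.9% and 14.8% also occur in other genes' transcripts. Dnajc7 was the fourth higher in neurons, and its small change (0.12, adjusted p = 0.043) was lost without NPC replicate 1 (adjusted p = 0.16) or NPC replicate 2 (adjusted p = 0.32), with the replicate number as a block (adjusted p = 0.058), and was -0.08 with library size only. Dnajb2, a J protein known from neurons, was higher in NPCs, at 34.5 and 35.9 CPM against 25.5 and 28.1 CPM (-0.39 ± 0.07, adjusted p = 0.00014). Dnajb1, the heat-inducible partner of Hsp70, was at 68.0 and 68.1 CPM in NPCs and 68.2 and 70.3 CPM in neurons and missed the threshold (0.02), though it passed as higher in NPCs with library size only (-0.18, adjusted p = 0.0080).

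Of the 6 J proteins of the nucleus, RNA and the ribosome, NPCs had the higher level for 4 and neurons for 1, with a median of -0.20. Those counts were 3 and 0 with DESeq2 and without NPC replicate 1, NPC replicate 2 or neuron replicate 1, 3 and 1 with no low-count filter, and 2 and 0 when more than a 1.2-fold change was asked for. Dnajc9, which handles histones before they enter chromatin, fell from 145 and 144 CPM to 97.2 and 85.3 CPM (-0.66 ± 0.06, adjusted p = 5.7e-08). Dnajc24, an enzyme of the diphthamide pathway that modifies an elongation factor, fell from 23.6 and 24.3 CPM to 14.1 and 12.6 CPM (-0.84 ± 0.09, adjusted p = 1.5e-07). Mitosis markers, which were also higher in NPCs (10 of 10, median -2.21), moved with Dnajc9, and their part in its change was not tested. Dnajc21 and Dnajc2, which act at the ribosome, had log2 changes of -0.26 (adjusted p = 0.0043) and -0.15 (adjusted p = 0.034). The Dnajc2 call was lost without NPC replicate 1 (adjusted p = 0.10), NPC replicate 2 (adjusted p = 0.24) or neuron replicate 1 (adjusted p = 0.12).

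The 2 members of this group linked to splicing behaved differently. Dnajc8, a spliceosome protein, was at 188 and 186 CPM in NPCs and 195 and 178 CPM in neurons (0.00 ± 0.06, adjusted p = 0.98). Its sign turned without NPC replicate 1 (0.0019) or neuron replicate 2 (0.07), and it passed as higher in NPCs with library size only (-0.21, adjusted p = 0.0028). Dnajc17 was higher in neurons at 0.25 ± 0.09 (adjusted p = 0.020), a call lost without NPC replicate 1 (adjusted p = 0.12), NPC replicate 2 (adjusted p = 0.073) or neuron replicate 1 (adjusted p = 0.061), and it was 0.04 with library size only.

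Of the 11 ER J protein genes, 4 were higher in NPCs, 3 in neurons and 4 did not pass (median -0.01). With library size only, or without NPC replicate 1, 0 of the 11 were higher in neurons in edgeR. The falls included the larger changes. Dnajc3, an inhibitor of the kinase that slows translation during ER stress, fell from 53.5 and 57.3 CPM to 36.3 and 38.2 CPM (-0.57 ± 0.06, adjusted p = 6e-07). Dnajc10, a reductase that helps to clear misfolded proteins, fell from 116 and 119 CPM to 87.1 and 90.2 CPM (-0.41 ± 0.05, adjusted p = 3.7e-06). Dnajb9 was higher in neurons, at 16.6 and 18.3 CPM against 20.1 and 23.0 CPM (0.30 ± 0.09, adjusted p = 0.0063), a call lost without NPC replicate 1 (0.23, adjusted p = 0.092) and at 0.10 with library size only. Dnajc14 was at 0.20 ± 0.05 (adjusted p = 0.0037), lost without NPC replicate 1 (0.17, adjusted p = 0.087) and at -0.01 with library size only.

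Hsp90b1 and Dnajc3 carry the letters of the ER stress response element, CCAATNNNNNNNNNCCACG on either strand, in the same promoter windows. No other chaperone gene did of the 67 matched (2.99%), where 0.137% of all genes in the table did. Both genes fell in neurons (-0.55 and -0.57), and ER genes without these letters went either way, such as Dnajc10 (-0.41) and Dnajb9 (0.30). The letters show no binding, and their part in the changes was not tested. Hsp90b1 holds 2 matches, read on the minus strand at chr10:86705508-86705576 (a) and chr10:86705613-86705681 (b), and Dnajc3 holds 1, on the plus strand at chr14:118937802-118937870. The matched bases are in capitals.
Hsp90b1 (a): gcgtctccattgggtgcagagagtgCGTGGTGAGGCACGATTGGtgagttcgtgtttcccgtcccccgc
Hsp90b1 (b): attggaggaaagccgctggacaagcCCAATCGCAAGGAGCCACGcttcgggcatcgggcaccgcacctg
Dnajc3: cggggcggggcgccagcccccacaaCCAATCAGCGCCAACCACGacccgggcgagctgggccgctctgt

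The remaining J protein genes were at low levels. Dnajb3 was at 2.59 and 3.13 CPM in NPCs and 5.30 and 5.27 CPM in neurons (0.88 ± 0.15, adjusted p = 7.1e-05). Its gene overlaps several Ugt1a genes in RefSeq, so its reads cannot be assigned with certainty. Dnajb7 was at 0.677 and 0.704 CPM against 0.594 and 0.407 CPM and lies within Xpnpep3 (adjusted p = 0.25). Dnajc22 had 16 and 14 counts in NPC libraries and 2 and 2 in neuron libraries, a ratio of 6.43 (95% exact interval 2.26 to 25.1), and passed in edgeR (adjusted p = 0.0036) but not in DESeq2 (adjusted p = 0.060). Dnajc12 was at 6.27 and 4.74 CPM against 5.06 and 4.75 CPM (-0.17, adjusted p = 0.33). It turned to 0.05 without NPC replicate 1 and passed as higher in NPCs with library size only (-0.37, adjusted p = 0.035).

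**Figure D4:**
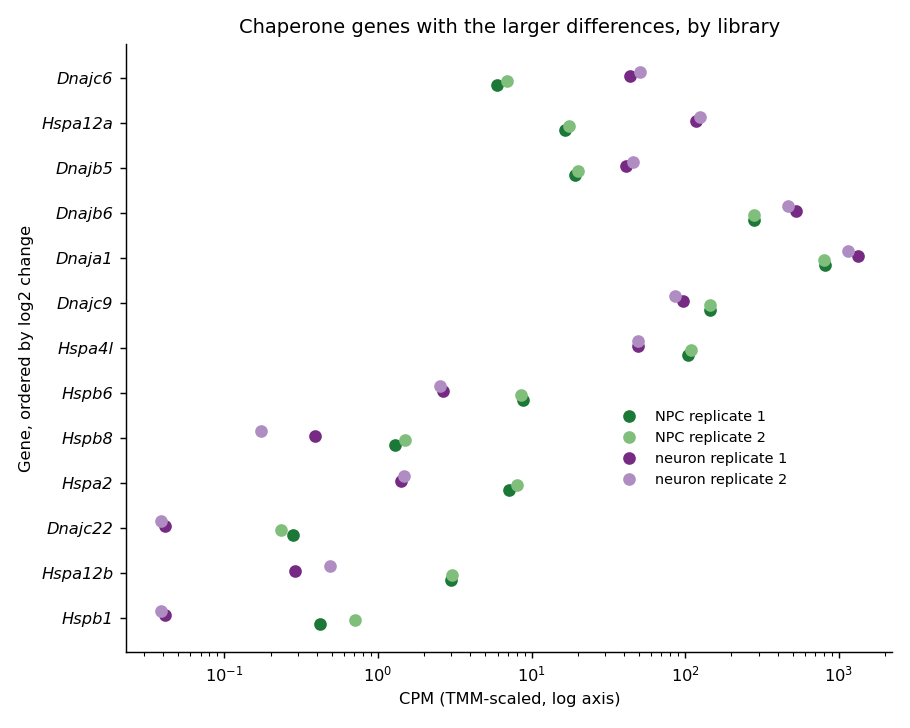
CPM in each library (log axis) is plotted for the 13 chaperone genes that passed and differed by at least 2-fold, or by at least 1.5-fold at a mean of at least 20 CPM. For all 13 genes both neuron points lie on the same side of both NPC points, as for 86.0% of all genes tested. They lie to the right for 5 genes and to the left for 8, and 4 of the 8 are at or below about 3 CPM in every library.

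Partners that the symbol rule leaves out were read from lists of the wider chaperone system. Of 8 tested genes listed as prefoldin or phosducin-like cofactors of TRiC, 7 were higher in neurons and 0 in NPCs in edgeR (median 0.23). But with library size only 1 was higher in neurons and 1 in NPCs (median 0.02), and with upper-quartile factors 4 and 0. Pfdn4, a prefoldin subunit, went from 62.2 and 60.5 CPM to 88.2 and 86.4 CPM (0.51 ± 0.06), still higher with library size only (0.30). Pdrg1 and Vbp1 were at 0.30 and 0.24, and at 0.09 and 0.03 with library size only. Tubulin folding cofactors, which take tubulin after TRiC, were higher in neurons for 6 of 7 (median 0.44), and for 5 of 7 with library size only (median 0.23). Tbcb went from 108 and 99.1 CPM to 171 and 156 CPM (0.66 ± 0.06) and Tbcd was at 0.55, while Tbcel, named after its value was seen, was at -0.32. For comparison, neurons had the higher level for 35.8% of all genes tested with TMM factors (5467 of 15292). That count was 3840 with library size only and 4609 with upper-quartile factors.

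Hsp90 co-chaperones were split, with 8 of 19 higher in neurons, 5 in NPCs and a median of -0.01, which became 3 and 11 with library size only. Leaving out NPC replicate 1 gave 5 and 3. Fkbp5, a co-chaperone of steroid receptors, was at 0.57 ± 0.07, and Ptges3, which closes the Hsp90 cycle, went from 396 and 395 CPM to 339 and 345 CPM (-0.21 ± 0.05). Unc45b, a myosin chaperone, was below 1.1 CPM in every library (-3.38). Hsp70 partners and exchange factors outside the symbol rule were split too, with 7 of 15 higher in each population. Bag6 was at 0.52 ± 0.06. St13 was at -0.14 ± 0.05, lost without NPC replicate 1 (adjusted p = 0.27) or NPC replicate 2 (adjusted p = 0.11). Of the 5 tested genes for transcription factors or their partners, 3 were higher in neurons and 1 in NPCs. Those counts were 2 and 2 with library size only, and 2 and 0 of 6 tested with DESeq2. Hsbp1, whose product binds heat shock factor, went from 171 and 164 CPM to 268 and 242 CPM (0.61 ± 0.06), while Hsf1, the main heat shock factor, named after its value was seen, was at -0.19 (adjusted p = 0.020) and lost its call without NPC replicate 1 (adjusted p = 0.19) or neuron replicate 1 (adjusted p = 0.077). Hsf2bp was at or below 1.10 CPM in every library (2.04). Of 8 other mitochondrial chaperones, proteases and crystallins, 2 were higher in neurons and 3 in NPCs. Cryab, a small heat shock protein by structure, was at 0.921 and 0.804 CPM in NPCs and 3.30 and 1.98 CPM in neurons (1.61 ± 0.27), opposite in direction to Hspb1, Hspb6 and Hspb8, and Clpx did not pass (0.01), though it passed as higher in NPCs with library size only (-0.20, adjusted p = 0.0055).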

How the data were processed

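Per the labels' protocols, cortices were dissociated, cells were sorted, TRIzol gave total RNA, and an Illumina TruSeq kit was used for the libraries. The authors deposited 1 table of estimated counts per gene, not scaled between libraries. Each of the 65205 values above 0 and below 10000 equals a whole number of bases over 101, to 0.01 base. The read length of 101 was inferred from that, as the smallest length tried that every value met. The submitters' processing notes name build mm9, TopHat 1.2.0, SAMtools 0.1.18 and CASAVA 1.9. Counter, annotation and strand setting are not stated there, so overlapping genes and copies are uncertain.

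Estimated counts were rounded. Rows with few counts were removed with filterByExpr, leaving 15292 genes. TMM factors were 1.08 and 1.07 for NPCs and 0.928 and 0.933 for neurons. Groups were compared, unpaired, with edgeR 4.0.16 (R 4.3.3), which was also tested on simulated data. Fits with DESeq2 1.42.0 and limma 3.58.1 were alternatives, with other scalings, filters and left-out libraries. Lengths and 101-base windows came from the longest coding GENCODE M21 transcript (81 of 82 genes, exact matches, same strand), and promoters from RefSeq. Over 10% of the windows were shared for 11 genes, among them Hspa14 (13.1%).

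Members and lists were chosen with earlier results of these data known. Named genes were, per role list, the 2 with the smallest p, the highest mean CPM and the highest and lowest change, all of TRiC, Hsp90, short lists and paralog ratios, and, per partner list, the 2 with the smallest p and the highest mean. Hspa14, Hspa1l, Hspb8, Dnajb1, Dnajc2, Dnajc7, Dnajc13, Dnajc18, Dnajc21, Gak, Grpel1, Grpel2, Tbcel and Hsf1 were added after their values were seen.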

Additional observations from a re-analysis of the deposited data

How the results depend on the processing

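Of the 49 chaperone genes that passed, 28 kept their direction and call under each of the 13 alternatives that tested them. The matching share of all genes that passed was not worked out, so the 28 say nothing particular to chaperone genes. The count over all genes tested (11108) stayed within 1.5 times under each alternative, from 8288 when more than a 1.2-fold change was asked for to 11450 with library size only. Over all genes, those higher in neurons (5467) became 4609 with upper-quartile factors, 3840 with library size only and 3919 in the 1.2-fold test. In the same order, chaperone genes higher in neurons (23) became 13, 12 and 12. In that last test, genes higher in NPCs went from 5641 to 4369 over all genes and from 26 to 17 among chaperone genes. Leaving out 1 library gave 14 to 26 genes higher in neurons, 21 to 26 higher in NPCs and 9773 to 11252 of all genes, with the lone sample of its group assumed to vary like the others. The replicate numbers pair nothing that the labels name. Deviations of same-numbered libraries correlated at -0.01 across genes, and with a replicate block 22 genes were higher in neurons, 26 in NPCs and 11206 of all genes passed. Of the 74 chaperone genes, 17 turned sign with library size only and 10 with upper-quartile factors, and the cause was not tested beyond the shift in scaling. Of these, Dnajc7, Dnajc11, Dnajc14 and Dnajc18 had passed (Dnajc18 at 0.19, and -0.0194 with library size only). For the genes named in the report, with library size only, Cct6a was at -0.13, Cct8 at -0.19, Dnajb1 at -0.18, Dnajc7 at -0.0829, Dnajc11 at -0.0303, Dnajc14 at -0.0106, Hsp90aa1 at -0.0949, Hspa13 at -0.13, Hspa1b at -0.18 and Tcp1 at -0.11. With upper-quartile factors, Cct6a was at -0.0193, Cct8 at -0.0848, Dnajb1 at -0.0767, Hspa13 at -0.0246, Hspa1b at -0.0699 and Tcp1 at -0.0053. A filter of 5 CPM put Cct8 at -0.0213 and Dnajb1 at -0.0132. Dnajc8 was at 0.0064 with RLE factors, 0.0072 with no filter and 0.0063 with DESeq2. Leaving out 1 library at a time gave -0.0039 to 0.0553 for Cct8, -0.0582 to 0.0709 for Dnajc8, -0.3558 to 0.0458 for Dnajc12, -0.2278 to 0.3481 for Hspa1b and -0.8318 to 0.1715 for Cct6b. Depth limits Hspb1, Hspb8, Dnajc22, Hspa1a, Hspa1b, Dnajb7 and Cct6b, whose means were under 1 CPM.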
